A study of Mus musculus with 6 samples.

Results

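The genes Tbp, Nono and Rpl13a were measured in the hippocampus of juvenile mice whose mothers drank nicotine or vehicle. They were taken as the reference probes of the array whose RefSeq accession belongs to these genes, with 1 probe per gene printed as 20 spots on every array. They are 3 of the 15 reference probes that could be named, among 60915 probes in all. The vehicle offspring were C57BL/6 mice on postnatal day 20 (PND 20) whose dams drank 1% saccharin in water. The nicotine offspring were of the same strain and age, and their dams drank 200 μg/ml nicotine, which per the methods was also given in 1% saccharin, so saccharin was shared by both groups. Exposure began before mating and lasted until weaning. Each group had 3 arrays with 1 sample each. Total hippocampus was used, offspring of either sex were included, and the sex and litter behind each array are not given in the sources used here. Exposure was given to the dams, so samples from the same litter would not be independent. The study's list of sample sizes gives as many samples per group as there are arrays, in a list that also counts mice, but does not say outright that each was a single animal, so p-values measure only the spread between these samples, which may be technical.

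Tbp encodes the TATA-binding protein, the subunit of transcription factor TFIID that contacts the core promoter and helps to place RNA polymerase at the start site. Nono encodes an RNA- and DNA-binding protein of the nucleus that works with the partner protein Sfpq in transcription and splicing and is found in paraspeckles. Rpl13a encodes a protein of the large ribosomal subunit, the particle that joins amino acids into protein. All cells need transcription and the making of protein, and the 3 genes are widely used as reference genes when RNA levels are compared between tissues. No other gene of these pathways, and no marker of a hippocampal cell type, was among the named probes, so neither the rest of the pathways nor the tissue label was checked here.

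The arrays lay on 2 slides that were scanned on different days. Slide 1 held vehicle replicates 1 and 2 and nicotine replicates 2 and 3, and slide 2 held vehicle replicate 3 and nicotine replicate 1. The 75th percentile of the signal was 291 to 345 on slide 1 and 148 to 150.0 on slide 2, so the arrays of slide 2 were dimmer. For that reason each level below is the mean log2 signal over the spots of a probe minus the log2 of the array's 75th percentile, and a level of 0 is a signal at that percentile. No spot of the 3 probes was saturated and all 360 were well above background. Levels of different probes were not compared, since brightness also depends on the probe.

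Tbp did not pass the test between the groups. Its level was 1.60, 1.34 and 1.58 in vehicle replicates 1 to 3. In nicotine replicates 1 to 3 it was 1.76, 1.74 and 1.57. Nicotine replicates 1 and 2 lay above every vehicle array, nicotine replicate 3 lay below vehicle replicates 1 and 3, and the lowest value belonged to vehicle replicate 2. The mean level was 1.51 ± 0.15 (SD, n = 3) in vehicle and 1.69 ± 0.11 (SD, n = 3) in nicotine offspring. The difference of 0.18, nicotine minus vehicle, had a standard error of 0.21 and a 95% interval of -0.30 to 0.67 (limma with Benjamini-Hochberg adjustment over 30233 probes, adjusted p = 1.00). As a ratio this is 1.13-fold, with an interval of 0.810 to 1.59. The exact permutation test over the 6 arrays gave a two-sided p = 0.3, where the smallest p that 3 arrays against 3 can give is 0.1. Within slide 1 the difference was 0.18, and the single pair of arrays on slide 2 also gave 0.18. Without vehicle replicate 2 it was 0.097. In whole tissue, a change in the number of cells with a transcript and a change in its amount per cell cannot be told apart.

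Nono did not differ between the groups beyond the spread of its replicates. Its level was 2.82, 3.26 and 3.06 in vehicle replicates 1 to 3. It was 3.23, 2.99 and 2.75 in nicotine replicates 1 to 3. Both groups spanned nearly the same range, with the highest value in vehicle replicate 2 and the lowest in nicotine replicate 3. The means were 3.05 ± 0.22 (SD, n = 3) in vehicle and 2.99 ± 0.24 (SD, n = 3) in nicotine offspring. The difference was -0.056, with a 95% interval of -0.61 to 0.50 (limma, adjusted p = 1.00). The interval allows ratios from 0.654 to 1.41. The exact permutation test gave a two-sided p = 0.7. On slide 1 alone Nono was at -0.17, nicotine minus vehicle, and the pair on slide 2 gave 0.17, so its sign was not the same on both slides.

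Rpl13a had the widest spread of the 3 genes. It was at 3.88, 4.64 and 4.32 in vehicle replicates 1 to 3. It was at 4.76, 4.35 and 4.09 in nicotine replicates 1 to 3. Nicotine replicate 1 was the highest array and vehicle replicate 1 the lowest, and the other 4 arrays of both groups were interleaved. The means were 4.28 ± 0.38 (SD, n = 3) in vehicle and 4.40 ± 0.34 (SD, n = 3) in nicotine offspring. The difference of 0.12 had a 95% interval of -0.56 to 0.80 (limma, adjusted p = 1.00), or 0.676 to 1.74 as a ratio. The exact permutation test gave a two-sided p = 0.7. Its within-slide values were -0.044 on slide 1, with 2 arrays per group, and 0.44 for the pair on slide 2. The difference was -0.064 without nicotine replicate 1 and -0.083 without vehicle replicate 1, so either of these arrays decided its sign. Ribosomal protein genes have processed copies elsewhere in the genome, and whether the probe also binds transcripts of such copies is not known here.

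**Figure D1:**
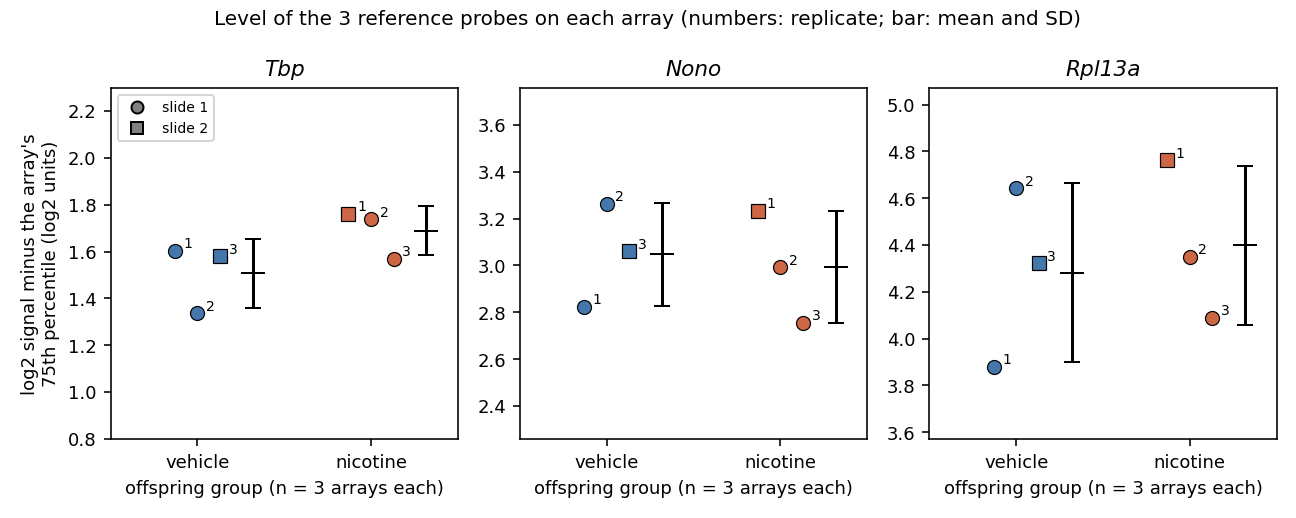
Level of Tbp, Nono and Rpl13a on each array (y axis, log2 signal minus the array's 75th percentile, each panel spanning the same number of log2 units) by group, with circles for slide 1, squares for slide 2, replicate numbers beside the points and bars for mean and SD (n = 3). The groups overlap in all 3 panels, and the spread is widest for Rpl13a.

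None of the 3 genes passed a threshold of p under 0.05 with a 1.5-fold change, none had an adjusted p under 0.05 (the unadjusted limma p was 0.408, 0.821 and 0.699 for Tbp, Nono and Rpl13a), and none had groups that did not overlap. Over all 30233 probes tested, 3.04% passed the first rule and 0.0265% the second (limma). Groups did not overlap for 8.42% of the 30197 probes measured on every array. Read against these shares, 0 of 3 genes is no result particular to them. The median difference over all probes tested was -0.017 on the log2 scale, and the median size of a difference was 0.20, a little above the 0.18 of Tbp.

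The groups also overlapped by rank, which needs no scaling between arrays, although the order of the arrays was not quite that of the levels. Counted from the brightest, the probe of Tbp ranked 9033, 9962 and 9183 in vehicle replicates 1 to 3 and 8636, 8525 and 9102 in nicotine replicates 1 to 3, among 60892 to 60908 probes per array. Nono, in the same order of replicates, ranked 5911, 5155 and 5468 in vehicle and 5101, 5483 and 6032 in nicotine offspring. Rpl13a ranked 3890, 2956 and 3320 in vehicle offspring, and its nicotine ranks were 2687, 3133 and 3569. Over the 6 arrays 83.6% to 86.0% of probes were dimmer than Tbp, 90.1% to 91.6% dimmer than Nono and 93.6% to 95.6% dimmer than Rpl13a. By rank Tbp was brighter on nicotine replicate 3 than on vehicle replicate 3, and Nono was brightest on nicotine replicate 1, both unlike the order by level. These ranks order the brightness of probes, not the abundance of transcripts.

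The spots of a probe on 1 array gave closely similar signals. The SD of the log2 signal over the spots of a probe was 0.04 to 0.09 for Tbp, 0.03 to 0.10 for Nono and 0.02 to 0.06 for Rpl13a. On slide 2 it was at most 0.05 for any of the 3 genes, and on slide 1 it reached 0.10. The largest standard error of an array's mean was 0.02 for Tbp, 0.02 for Nono and 0.01 for Rpl13a. This error covers only the spread of spots within an array and leaves out labelling and hybridization, so it is no measure of the error between arrays. The spots of 1 array are not replicates of a group and were not tested as such. Feature Extraction marked 13 of 120 spots as outliers for Tbp, 4 of 120 for Nono and 8 of 120 for Rpl13a, and these were left out of the means.

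**Figure D2:**
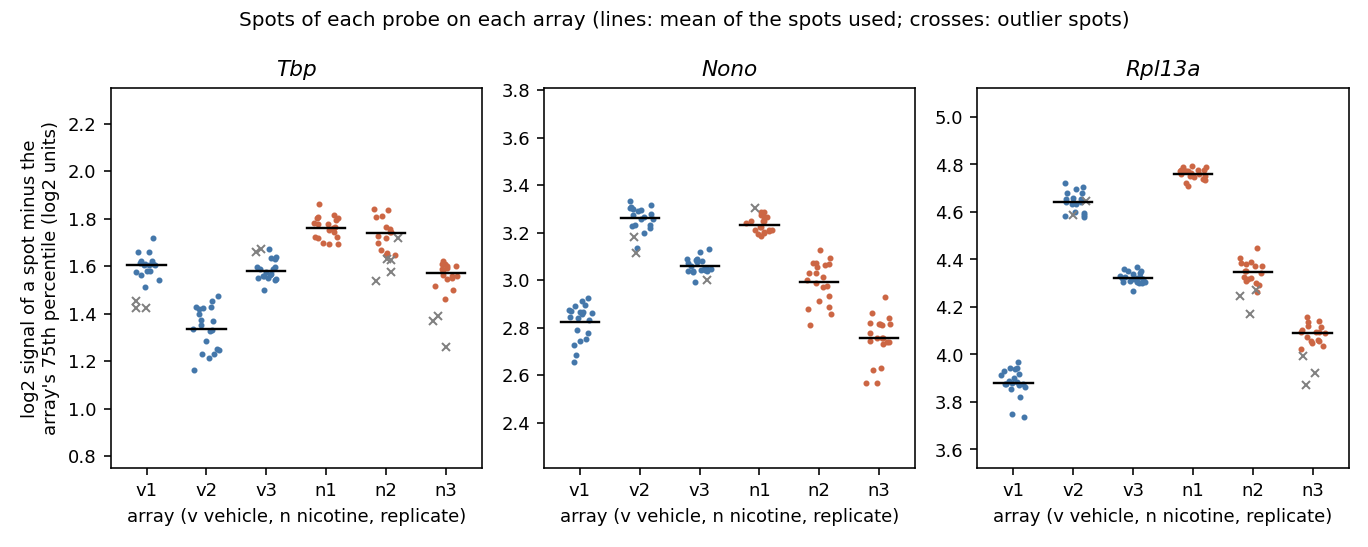
Log2 signal of each of the 20 spots per array minus the array's 75th percentile (y axis) for Tbp, Nono and Rpl13a on vehicle (v, blue) and nicotine (n, orange) arrays, with lines at the mean of the spots used and crosses at outlier spots. For Rpl13a the spots used on vehicle replicate 1 and on nicotine replicate 3 lie apart from those of every other array, while for Tbp and Nono the spots of several arrays overlap.

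Before scaling, the 3 genes were brighter on slide 1. The geometric mean signal of Tbp was 1041, 735, 1151 and 999 on vehicle replicates 1 and 2 and nicotine replicates 2 and 3, against 441 and 509 on vehicle replicate 3 and nicotine replicate 1. Nono had signals of 2273 to 2795 on slide 1 and of 1232 and 1411 on slide 2. Rpl13a had signals of 5044 to 7278 on slide 1 and of 2953 and 4066 on slide 2. Without scaling, slide 2 minus slide 1 was -1.03 for Tbp (limma with group in the model, adjusted p = 0.00400), -0.95 for Nono (adjusted p = 0.00343) and -0.84 for Rpl13a (adjusted p = 0.0138). After scaling to the 75th percentile it was 0.11 for Tbp (limma, 95% interval -0.27 to 0.49, adjusted p = 0.613). It was 0.19 for Nono (-0.29 to 0.66, adjusted p = 0.478) and 0.30 for Rpl13a (-0.32 to 0.93, adjusted p = 0.394). At this threshold 27.3% of all probes differed between the slides after scaling, and 0 of the 3 genes did. Since a single vehicle and a single nicotine array lay on slide 2, a slide effect and the state of those samples cannot be told apart.

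The difference of 2 probes on the same array does not change when 1 value is added to all log2 levels of that array, as scaling to a percentile does, so it was compared between groups for all 3 pairs of genes. Tbp minus Nono was -1.22, -1.93 and -1.48 in vehicle replicates 1 to 3 and -1.47, -1.25 and -1.19 in nicotine replicates 1 to 3. Its group means differed by 0.24, nicotine minus vehicle (exact permutation test, two-sided p = 0.4, 0.6 after Benjamini-Hochberg adjustment over the 3 pairs). Vehicle replicate 2 stood apart as the lowest, and without it the difference between groups was 0.046, while without vehicle replicate 1 it was 0.40. Within slide 1 it was 0.35, and the pair on slide 2 gave 0.0093. Tbp minus Rpl13a was -2.28, -3.31 and -2.74 in vehicle and -2.999, -2.61 and -2.52 in nicotine offspring, with a difference of 0.065 (exact permutation test, p = 0.9, adjusted 0.9). Scalings that also reshape the distribution did move it, to 0.025 with quantile normalization and 0.018 in the authors' normalized values. Here too vehicle replicate 2 was lowest, and without it the difference was -0.20. Nono minus Rpl13a was -1.06, -1.38 and -1.26 in vehicle and -1.53, -1.36 and -1.33 in nicotine offspring. The nicotine mean was lower by 0.17 on the log2 scale (difference -0.17, exact permutation test, p = 0.3, adjusted 0.6), and the groups overlapped only in that vehicle replicate 2 lay below nicotine replicates 2 and 3. The difference was -0.085 without vehicle replicate 1 and -0.11 without nicotine replicate 1. No pair passed the test, and the smallest p of 0.1 lies above the threshold in any case.

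Over all 6 arrays Nono and Rpl13a differed from each other less than either did from Tbp, an order that rested on vehicle replicate 2. The SD over the 6 arrays of the difference between the probes was 0.16 for Nono and Rpl13a, 0.28 for Tbp and Nono and 0.37 for Tbp and Rpl13a. Without vehicle replicate 2 it was 0.14 for Tbp and Nono, below the 0.17 of Nono and Rpl13a, and 0.27 for Tbp and Rpl13a. In vehicle replicate 2, Nono was 0.24 and Rpl13a 0.30 above their means over the 6 arrays, while Tbp was 0.26 below its mean (-0.26). In vehicle replicate 1, Rpl13a was at -0.46 and Nono at -0.20 relative to their means, with Tbp at 0.0061. On nicotine replicate 1 all 3 genes lay above their means, Tbp by 0.16, Nono by 0.21 and Rpl13a by 0.42. On nicotine replicate 3 all 3 lay below, with Tbp at -0.029, Nono at -0.27 and Rpl13a at -0.25. The widest gap between Tbp and the other two was on vehicle replicate 2. Among the 13 other named probes that passed the filter, those most like Nono were Gapdh, a glycolytic enzyme, and Ppia, a prolyl isomerase, with root mean square differences of 0.10 and 0.12 after each probe was centred on its own mean. For Rpl13a they were Nono at 0.14 and Gapdh at 0.20. For Tbp they were G6pd2, a copy of the glucose-6-phosphate dehydrogenase gene, at 0.15, and Gusb, a lysosomal glucuronidase, at 0.15. G6pd2 and Tbp both varied little, with an SD of 0.07 and 0.15 over the 6 arrays, and a small spread by itself makes this measure small. These are descriptions over 6 arrays that share slides and scaling, and they carry no test.

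**Figure D3:**
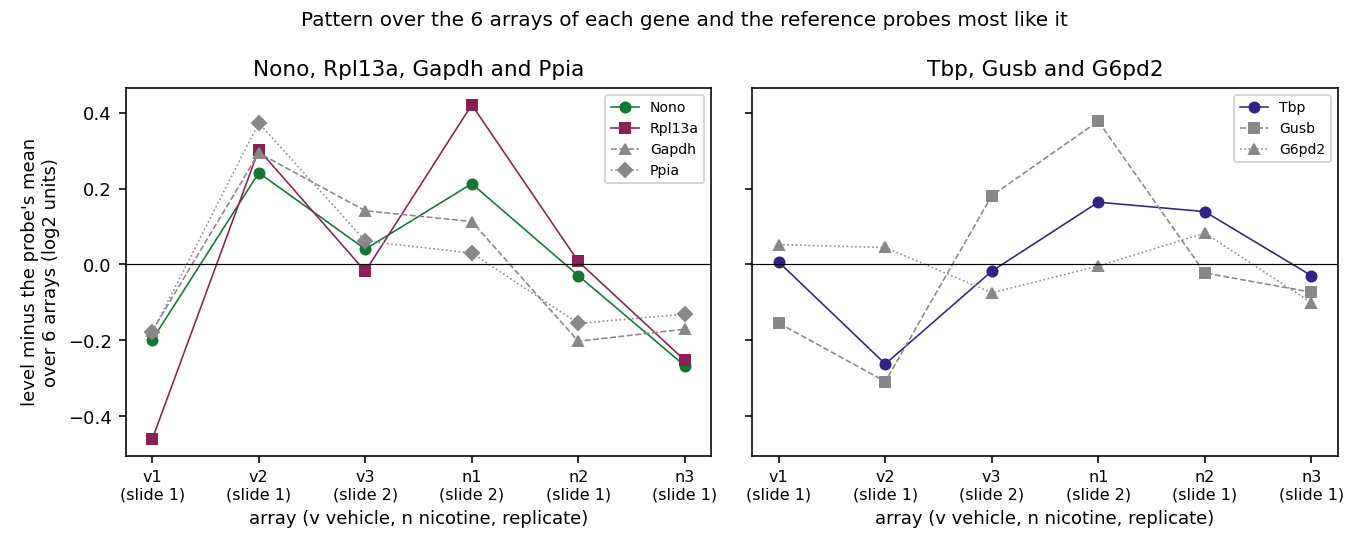
Level of each probe minus its own mean over the 6 arrays (y axis, log2 units) on vehicle (v) and nicotine (n) arrays, for Nono and Rpl13a with Gapdh and Ppia (left) and for Tbp with Gusb and G6pd2 (right); lines only join the points of a probe. Nono and Rpl13a are both high on vehicle replicate 2 and nicotine replicate 1 and both low on vehicle replicate 1 and nicotine replicate 3, while Tbp is lowest on vehicle replicate 2 and shares the high value of nicotine replicate 1.

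The sequences before the start sites of the 3 genes are shown beside their patterns over the arrays, from RefSeq on GRCm38.p6, 250 bases up to the annotated start, 5′ to 3′ along the gene. Capitals mark matches on either strand to TATAAA (the TATA box), CCAAT (the CCAAT box), GGGCGG (a GC box), CCGGAAG (an ETS motif), GCATGCGC (an NRF1 motif) or TGACGTCA (a cAMP response element). The windows are chr17:15499638-15499887 on the plus strand for Tbp, chrX:101429401-101429650 on the plus strand for Nono and chr7:45128746-45128995 on the minus strand for Rpl13a.
Tbp: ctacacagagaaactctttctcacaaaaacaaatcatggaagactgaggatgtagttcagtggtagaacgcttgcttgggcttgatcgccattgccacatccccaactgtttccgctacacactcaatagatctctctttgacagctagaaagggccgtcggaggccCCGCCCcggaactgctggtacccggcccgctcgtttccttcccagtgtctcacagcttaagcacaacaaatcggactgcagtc
Nono: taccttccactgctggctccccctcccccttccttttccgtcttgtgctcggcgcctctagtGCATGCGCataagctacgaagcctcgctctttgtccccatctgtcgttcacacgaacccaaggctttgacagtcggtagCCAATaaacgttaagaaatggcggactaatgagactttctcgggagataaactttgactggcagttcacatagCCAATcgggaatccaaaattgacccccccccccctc
Rpl13a: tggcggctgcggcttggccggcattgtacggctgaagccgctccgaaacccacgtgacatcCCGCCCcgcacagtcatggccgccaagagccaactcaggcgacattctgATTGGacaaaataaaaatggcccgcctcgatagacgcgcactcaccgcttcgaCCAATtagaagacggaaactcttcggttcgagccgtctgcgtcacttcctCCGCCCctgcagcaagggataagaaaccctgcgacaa
The windows of Nono and Rpl13a each held 2 matches to CCAAT, at 109 and 36 bases before the start in Nono and at 140 and 87 in Rpl13a, and that of Tbp held 0. CCAAT occurs in 33.8% of the 32851 RefSeq windows of this length. This share and those below count windows with at least 1 match. Nono also held GCATGCGC, which is present in 2.26% of windows, and Rpl13a held 2 matches to GGGCGG and Tbp 1, a motif present in 32.7% of windows. TATAAA (12.4% of windows), CCGGAAG (6.91%) and TGACGTCA (1.55%) had no match in the 3 windows, and no matches overlapped. These matches describe the letters in the windows and were not measured in these samples.

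Which of Tbp and Nono was the steadier reference depended on the scaling and on single arrays. Scaled to the 75th percentile, the SD over the 6 arrays, both groups together, was 0.15 for Tbp, 0.21 for Nono and 0.33 for Rpl13a, which placed them at positions 4, 7 and 12 of the 14 named probes that passed the filter, counted from the steadiest. G6pd2 was the steadiest of the others at 0.07 and Actb, a cytoskeletal actin, the least steady at 0.68. Of the 30197 probes measured on every array, 5.90% had a smaller SD than Tbp, 14.9% a smaller SD than Nono and 42.5% a smaller SD than Rpl13a, with a median of 0.36 over all probes. Within groups the SD was 0.13 for Tbp, 0.23 for Nono and 0.36 for Rpl13a, and 49.7% of all probes had a smaller within-group SD than Rpl13a, against 21.3% for Nono and 4.78% for Tbp. Centred on the mean of the 12 other named probes, which the other probes are part of, the SD was 0.24 for Tbp, 0.19 for Nono and 0.32 for Rpl13a, at positions 9, 8 and 11. Centred on the 11 of them that passed the filter it was 0.23 for Tbp, 0.16 for Nono and 0.28 for Rpl13a, at the same positions. With quantile normalization Tbp was at position 8 with 0.17 and Nono at position 9 with 0.18. The order of Tbp and Nono also turned on single arrays. Without vehicle replicate 2, Tbp had an SD of 0.14 and Nono of 0.20 centred on the 12 probes, and 0.13 and 0.17 on the 11. With quantile normalization, Tbp had 0.19 and Nono 0.18 without vehicle replicate 1, and Tbp had 0.19 and Nono 0.16 without nicotine replicate 3. Rpl13a had the largest SD of the 3 in these cases, but not in all. Without vehicle replicate 1 it had 0.26 against 0.27 for Tbp centred on the 12 probes, and 0.24 against 0.25 centred on the 11. Centred on the 11 and without nicotine replicate 1, Rpl13a had 0.23 against 0.25 for Tbp.

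**Figure D4:**
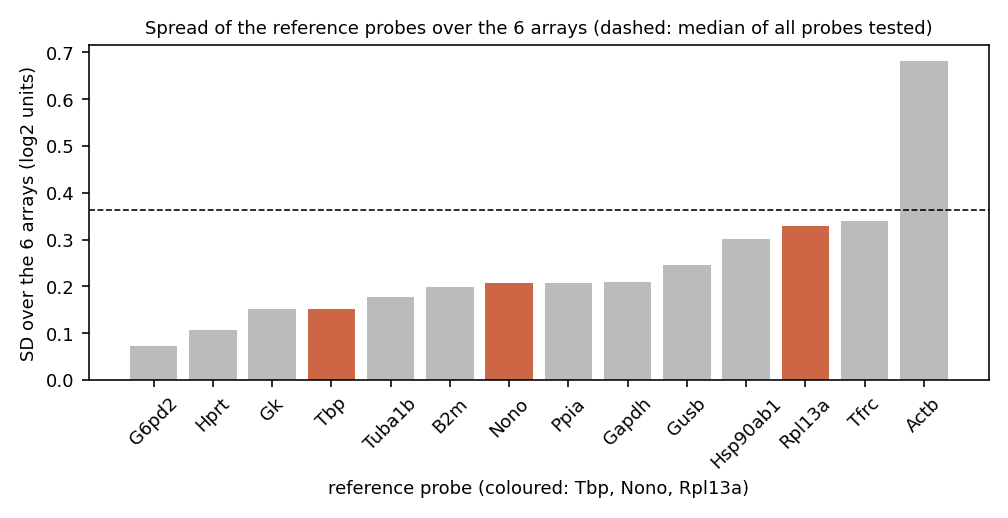
SD of the level over the 6 arrays (y axis, log2 units, bars from 0) for the 14 named reference probes that passed the filter, with Tbp, Nono and Rpl13a coloured and the median SD of all probes tested as a dashed line. With levels scaled to the 75th percentile, Tbp stands at position 4 and Rpl13a lies just under the median of all probes at 0.36; centred on the other named probes, Tbp moves to position 9, behind Nono, an order that vehicle replicate 2 decides.

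The choice among these genes as a reference would move every other difference between the groups by a fixed amount. Expressing arrays relative to Tbp would add -0.18 to each log2 difference, nicotine minus vehicle, and relative to Rpl13a it would add -0.12. Relative to Nono it would add 0.056, and relative to the mean of the 3 it would add -0.081. The mean of the 3 levels was 2.95 ± 0.16 (SD, n = 3) in vehicle and 3.03 ± 0.22 (SD, n = 3) in nicotine offspring and overlapped between the groups. Nicotine minus vehicle, this mean was at -0.010 within slide 1 and at 0.26 for the pair on slide 2. The mean of the 12 other named probes differed by -0.13, nicotine minus vehicle, and by -0.082 without Ldhal6b, a lactate dehydrogenase-like gene whose probe failed the background filter. Centred on these 12, the differences were 0.31 for Tbp (limma, 95% interval -0.22 to 0.84), 0.074 for Nono (-0.46 to 0.61) and 0.25 for Rpl13a (-0.40 to 0.89), with adjusted p = 1.00 for each. Without Ldhal6b they were 0.26 for Tbp (-0.26 to 0.79), 0.026 for Nono (-0.48 to 0.53) and 0.20 for Rpl13a (-0.41 to 0.81), again with adjusted p = 1.00 for each (limma). Centring on the 12 probes turned the sign of Nono and moved the median difference of all probes from -0.017 to 0.11, and centring on the 11 moved it to 0.065. Since both add 1 value per array, differences relative to that median are the same by construction, 0.20 for Tbp, -0.039 for Nono and 0.13 for Rpl13a.

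**Figure D5:**
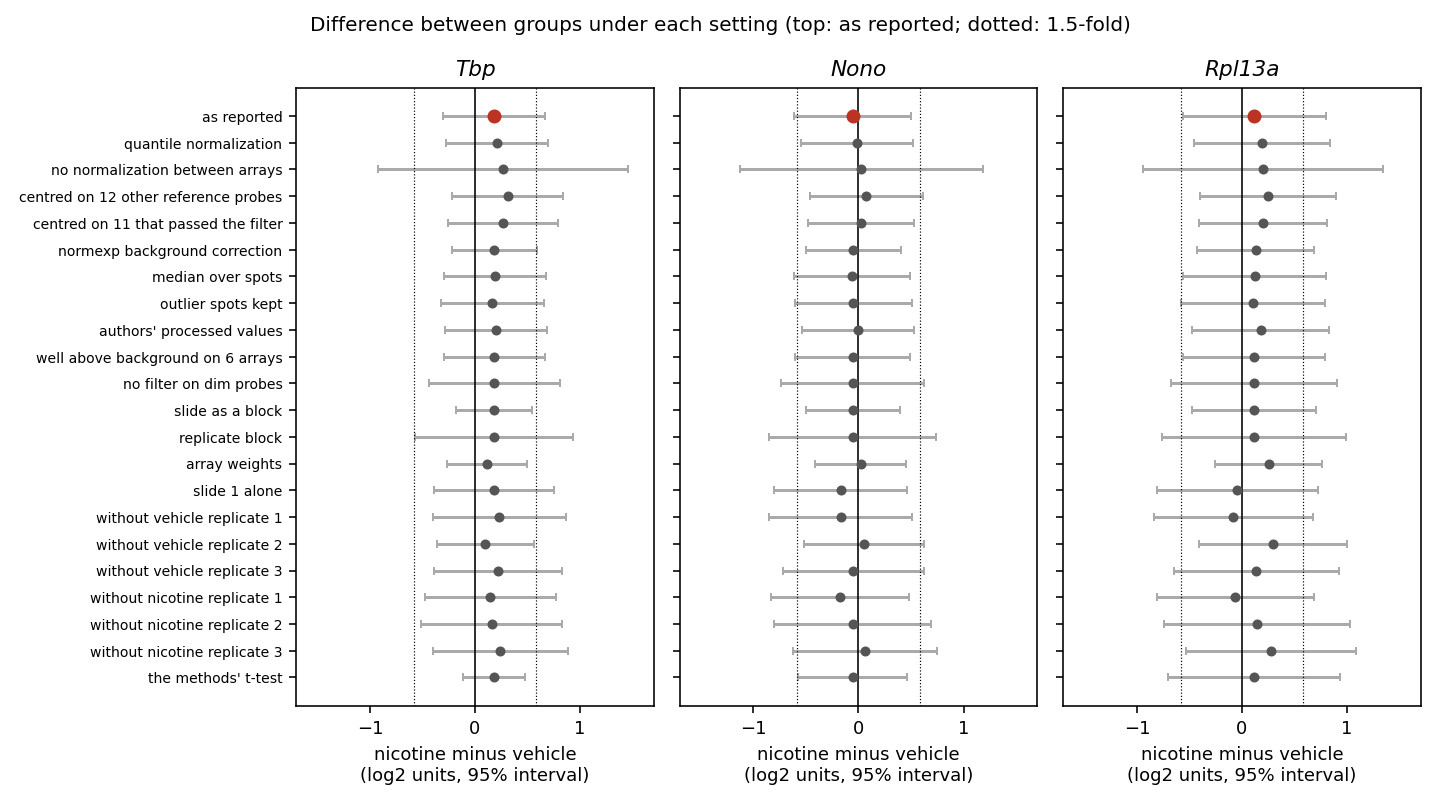
Difference between nicotine and vehicle offspring (x axis, log2 units, points) with its 95% interval (bars) for Tbp, Nono and Rpl13a under each processing setting (rows), with the reported value in red at the top and dotted lines at a 1.5-fold change. Every interval includes 0, and Tbp lies above 0 in all rows, while Nono and Rpl13a fall on both sides.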

How the data were processed

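Hippocampal RNA of 3 vehicle and 3 nicotine offspring samples was measured on Agilent arrays in 1 colour, Cy3, with groups and replicate numbers from the labels. The deposited scanner files give each spot's intensity as written by Feature Extraction 11.0.1.1, background-subtracted within the array, with flags for outlier, saturated and dim spots, and a table of log2 values that the authors normalized with GeneSpring GX.

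Log2 intensities were set relative to the 75th percentile of non-control spots of the array, outlier spots were left out and spots of a probe were averaged. Where all arrays of a group had a probe well above background, it was kept (30233 of 60915), and the kept probes were fitted in R 4.3.3 by lmFit and eBayes of limma 3.58.1, which was tested on simulated data, with Benjamini-Hochberg adjustment. Exact permutation tests used scipy 1.17.1. Of the reference probes, 15 of 15 accessions matched the RefSeq gene table (GRCm38.p6). The genes described are Tbp, Nono and Rpl13a, and others were named by likeness over the arrays or by their SD. Genes and lists were chosen with earlier results of these data known. Lists for TFIID, paraspeckles, ribosomal proteins and hippocampal cell types were planned, but 0 of their other genes were named. Probe sequences were not used here. The small number of arrays limits the precision. Replicate numbers are not stated to pair the samples. Slide was read from the scanner files. Alternatives are given in the closing section.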

Additional observations from a re-analysis of the deposited data

How the results depend on the processing

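With 3 arrays per group, changes smaller than the intervals given could not be resolved. No difference between the groups for Tbp, Nono or Rpl13a passed an adjusted p under 0.05 in any limma setting, and the difference of Tbp stayed above 0 in all of them. Nono turned to 0.026 without normalization between arrays, 0.074 centred on the 12 other named probes and 0.026 on the 11 that passed the filter (chosen after seeing the data), which add 1 value per array and moved the median of all probes to 0.065, 0.11 and 0.065, so relative to it Nono was at -0.039 in all. It turned to 0.020 with array weights and 0.17 on slide 2 alone, and Rpl13a to -0.044 on slide 1 alone. Without a change of sign, Rpl13a was at 0.25 with array weights, 0.19 with quantile normalization, 0.18 in the authors' values and 0.44 on slide 2 alone, and Tbp at 0.12 with array weights. Nono was at -0.013 with quantile normalization and -0.0066 in the authors' values. With single arrays left out, Tbp ran from 0.097 (without vehicle replicate 2) to 0.24, Nono from -0.18 to 0.064 (0.051 without vehicle replicate 2 and 0.064 without nicotine replicate 3) and Rpl13a from -0.083 to 0.30 (-0.083 without vehicle replicate 1 and -0.064 without nicotine replicate 1). Tbp minus Rpl13a turned to -0.26 on slide 2 alone and ran from -0.20 to 0.31, with -0.20 without vehicle replicate 2 and -0.030 without nicotine replicate 3. Tbp minus Nono ran from 0.046 to 0.40 and Nono minus Rpl13a from -0.25 to -0.085. Slide 2 minus slide 1 was -1.03, -0.95 and -0.84 for Tbp, Nono and Rpl13a without normalization, and -0.064, -0.031 and 0.029 with normexp (offset 50) on the median signal. The cause was not tested.

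Of the 30233 probes, 919 passed p under 0.05 and 1.5-fold. The count was 154 without normalization, 459 with normexp, 1484 with slide as a block, 1615 with array weights and 531 with the replicate block, and ran from 431 (without nicotine replicate 2) to 2040 (without vehicle replicate 3). Centred on the 12 other named probes it was 1125, of which 877 were higher and 248 lower, and on 11 it was 1015, with 706 and 309, against 478 and 441. The methods' t-test gave 612, with 1311 at an unadjusted p under 0.05 and 0 after Benjamini-Hochberg adjustment. In limma 8 probes passed an adjusted p under 0.05, against 19 with slide as a block and 45 with array weights. Among probes well above background on all 6 arrays it was 0. Across probes, deviations of arrays with the same replicate number correlated at -0.64, 0.45 and -0.69. The second pair shares a slide and the others do not, so these values cannot be told apart from the slide layout. No label says that a number marks a pair, and the replicate block, which cannot change a difference with 1 array of each group per number, gave 0.18, -0.056 and 0.12 for Tbp, Nono and Rpl13a, with the standard error of Tbp at 0.32 in place of 0.21.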
